A study of Caenorhabditis elegans with 9 samples.

Results

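The genes described here are 182 expressed pseudogenes of the nematode Caenorhabditis elegans that carry a sequence name such as F07H5.5 but no gene symbol. They were taken from the 46748 genes of the count table by a rule with 3 parts, which asks for the biotype pseudogene in WBcel235, for the lack of a symbol, and for a mean of at least 1 CPM, a gene's count as a share of its library's total, over all 9 libraries. The table held 2074 pseudogenes, of which 1491 had no symbol. Of those 1491, 182 met the level, 1309 lay below it, and 456 had no count in any library. Measured levels chose the members, so the size of their mean level is a property of the choice and is given as a description. The 3 members just inside the limit had rule values of 1.01 CPM (Y37H2C.1), 1.01 CPM (F12E12.3) and 1.02 CPM (F55G11.3), and the 3 pseudogenes just outside it had 0.996 CPM (C32H11.7), 0.991 CPM (Y38H8A.8) and 0.969 CPM (C06C3.11).

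RNA of whole hermaphrodite worms of the wild-type strain N2, aged 5 days, was sequenced after RNA interference (RNAi), in 3 groups of 3 libraries. The first group was labelled H28O16.1, the sequence name of atp-1, which encodes the alpha subunit of the mitochondrial ATP synthase. The second was labelled B0395.3, and the third was the control L4440, a feeding vector without an insert. Strain, sex, age and tissue were the same in all groups, and no source used here says how many animals or cultures stood behind a library, so the spread behind the p-values may be technical only.

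A pseudogene is a copy or relative of a gene whose reading frame is interrupted or incomplete, so that no protein is annotated for it. In C. elegans many arose by duplication and decay within gene families, chemoreceptor families among them. Transcripts with an early stop codon can be degraded by nonsense-mediated decay, the smg pathway. In the germ line, small RNAs made by RNA-dependent RNA polymerases and bound by WAGO Argonaute proteins are known to target many pseudogene transcripts.

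The 9 libraries held 31236614 to 40990685 counts, and every member had at least 2 counts in each of them. A chi-square per degree of freedom, taken within groups over the tested genes, was 2.54 to 2.72 between B0395.3 libraries and 3.04 to 3.96 between L4440 libraries. Replicate 3 of H28O16.1 stood apart, at 16.3 and 11.8 against replicates 1 and 2, which differed by 5.36. No pair of libraries was as close as sampling noise alone. In CPM scaled between libraries by TMM, the atp-1 mRNA averaged 70.7 ± 4.35 (SD, n = 3) in H28O16.1, 1762 ± 50.2 in B0395.3 and 1945 ± 72.0 in L4440. On the same scale the B0395.3 mRNA averaged 13.9 ± 2.23 in B0395.3 against 33.6 ± 1.77 in L4440. Each target was lowest in the group labelled with it. Ribosomal RNA took 0.107% to 0.317% of the counts in H28O16.1 and 0.206% to 0.294% in B0395.3, against 0.0869% to 0.102% in L4440.

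All members together made up little of the RNA. They took 0.154%, 0.159% and 0.156% of the counts in the H28O16.1 libraries, 0.183%, 0.177% and 0.183% in the B0395.3 libraries, and 0.165%, 0.161% and 0.163% in the L4440 libraries. The 3 groups did not overlap, with B0395.3 highest and H28O16.1 lowest. Per group the share was 0.156% ± 0.00261 (SD, n = 3) in H28O16.1, 0.181% ± 0.00331 in B0395.3 and 0.163% ± 0.00181 in L4440. These shares are a description, since members were picked by their level in the same libraries.

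A few members carried most of that RNA. The 3 with the most counts held 35.2% of the counts of all members and the 10 with the most held 56.9%. The mean TMM-scaled level, the unit of all CPM values from here on, had a median of 2.73 CPM over the members and reached 303 CPM. Per kilobase of exon the median was 2.82 CPM, against 8.44 CPM for the 13885 protein-coding genes tested, and 27 of the 182 members lay above that coding median. The cut-offs were unlike, since coding genes had only to pass the filter on low counts (minimum count 10) and not the rule's 1 CPM. Replicates differed by a median coefficient of variation of 10.7% in H28O16.1, 6.95% in B0395.3 and 8.60% in L4440.

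Ordered by mean CPM per kilobase of exon, F07H5.5 came first at 191, followed by ZC513.7 at 127, F07H5.3 at 110, C06A1.4 at 66.1 and F02H6.4 at 57.3. Below them came ZK380.t2 at 40.8, K11H3.4 at 30.3, C10C6.9 at 27.2, C14B1.7 at 26.9 and D1005.t1 at 25.3. ZK380.t2 and D1005.t1 are the 2 members annotated as tRNA pseudogenes, with 73 and 82 exon bases on chromosome X, and their level per kilobase therefore rests on few bases. F07H5.5 lies on chromosome II from 8787770 to 8789716 on the plus strand and has 8 annotated exons. Its level was 280, 283 and 298 CPM in H28O16.1, 346, 333 and 347 CPM in B0395.3, and 292, 270 and 277 CPM in L4440. B0395.3 was above both other groups in every library, while H28O16.1 and L4440 overlapped (edgeR log2 fold change 0.29, adjusted p = 3.52e-05 for B0395.3 over L4440, and 0.04, adjusted p = 0.367 for H28O16.1 over L4440).

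The expressed members were longer gene models than the pseudogenes below the limit. Their exons covered a median of 1175.5 bases in a median of 5 exons, against 608 bases in 3 exons for the 1309 unnamed pseudogenes below 1 CPM. Only 10 members (5.49%) had a single exon, against 482 (36.8%) of those below. The set below holds 207 tRNA pseudogenes, and without those of both sets the medians were 1178 bases in 5.5 exons, against 753.5 bases in 3 exons, with 4.44% against 25.1% of models in a single exon. A longer model collects more reads at the same level per base, and the part of length in this difference was not tested. Members were 18.1% of the unnamed pseudogenes on chromosome II and 18.2% on III, but 8.26% on V, which holds the most (45 of 545).

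Of the 182 members, 143 had a group mean of at least 1 CPM by the rule's measure in all 3 groups. The mean of H28O16.1 lay below 1 in 26 members, that of B0395.3 in 4 and that of L4440 in 12. A test for any difference among the 3 groups, with edgeR and an adjusted p under 0.05, called 145 members (79.7%), against 69.2% of all 14622 genes tested. All 182 members passed the filter on low counts, which asks for less than the rule does. It also kept genes well below 1 CPM, among them rol-6 at a mean of 0.238 CPM. The genes tested were therefore not matched to the members in level. A member that is high in 1 group only can enter through that group, so counts of called members describe the list and do not set it apart.

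H28O16.1 RNAi was compared with L4440 to describe the pseudogene transcripts of worms treated against atp-1. Of the 182 members, 48 were higher and 78 lower in H28O16.1 and 56 were not called, while 26.3% of all genes tested were called higher and 31.2% lower (57.6% in either direction). The share called higher was near the background, and the share called lower was 42.9%. Past a 2-fold change, 11 were higher and 24 lower, against 3.45% and 8.38% of all genes. The median log2 fold change was -0.12 over the members and -0.00 over all genes. The groups did not overlap in 131 members, against 61.4% of all genes. When members were chosen instead by a mean of at least 1 CPM in B0395.3, a group outside this comparison, 47 of 202 were higher and 96 lower, with a median of -0.24. That choice is not neutral, since it takes in 20 pseudogenes that reach 1 CPM in B0395.3 alone. Its counts are a description too. Without H28O16.1 replicate 3, the library that stood apart, 51 members were higher and 72 lower.

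**Figure D1:**
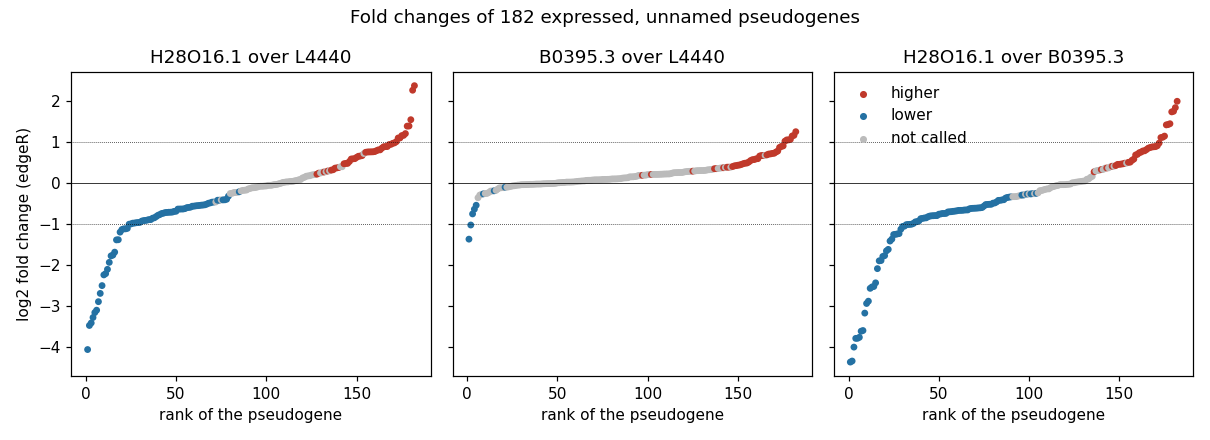
Log2 fold change of each of the 182 pseudogenes in each comparison, ranked from the lowest to the highest. Red and blue points passed the edgeR test at an adjusted p under 0.05, and dotted lines mark a 2-fold change. The lower tail is longest in the 2 comparisons of H28O16.1, reaching -4.06 over L4440 and -4.37 over B0395.3, against -1.37 for B0395.3 over L4440.

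The largest falls left transcripts that were near 0 in H28O16.1. Y70G10A.1, a single-exon pseudogene on chromosome III, was at 0.131, 0.0628 and 0.171 CPM in H28O16.1, 2.51, 2.80 and 2.69 CPM in B0395.3, and 2.12, 2.22 and 2.12 CPM in L4440. The H28O16.1 libraries, with 5, 2 and 7 counts, were all far below the other 6. The fitted difference over L4440 was 16.7-fold lower (log2 fold change -4.06, SE 0.23, edgeR adjusted p = 1.04e-08). C33E10.3, on the X chromosome, was at 0.183, 0.157 and 0.171 CPM in H28O16.1, 3.87, 3.91 and 2.84 CPM in B0395.3, and 2.26, 1.66 and 1.90 CPM in L4440. It was lowest in all H28O16.1 libraries and highest in all B0395.3 libraries, with log2 fold changes over L4440 of -3.47 in H28O16.1 (edgeR adjusted p = 1.85e-07) and 0.87 in B0395.3 (adjusted p = 0.00101).

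F23A7.6, a model of 13 exons on the X chromosome, had more counts behind it. It stood at 0.575, 0.439 and 0.416 CPM in H28O16.1, 6.58, 6.57 and 6.42 CPM in B0395.3, and 5.61, 4.92 and 4.83 CPM in L4440. All H28O16.1 libraries lay below all others (log2 fold change over L4440 -3.41, SE 0.15, edgeR adjusted p = 7.35e-10). Y43B11AL.5, on chromosome IV, was at 0.444, 0.439 and 0.440 CPM in H28O16.1, 6.41, 5.94 and 6.04 CPM in B0395.3, and 3.36, 3.13 and 3.41 CPM in L4440. Here too the 3 groups were apart, in the order B0395.3, L4440, H28O16.1, with log2 fold changes over L4440 of -2.89 in H28O16.1 and 0.89 in B0395.3. F44F1.5, a single-exon pseudogene on chromosome I, kept the same order, with 1.12, 1.19 and 1.05 CPM in H28O16.1, 9.35, 10.1 and 10.9 CPM in B0395.3, and 6.33, 6.34 and 6.37 CPM in L4440.

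The other 5 of the 10 largest falls were T26H2.10 (log2 fold change -3.28, and -3.99 without H28O16.1 replicate 3), ZK250.15 (-3.16), F21D9.5 (-3.10), T04B8.2 (-2.69) and F20B6.7 (-2.24). T26H2.10 and F21D9.5 had as few as 2 and 3 counts in 1 H28O16.1 library. None of the 10 exceeded 10.9 CPM in any library. The comparisons of both RNAi groups use the same L4440 libraries, so their fold changes for a member are set side by side and not combined.

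Markers of early embryos, which 5-day hermaphrodites can carry as eggs, also differed. Of 12 marker genes, 9 could be tested, of which 6 were lower in H28O16.1 and 1, pal-1, was higher (0.14). The T-box gene tbx-38 averaged 0.123 ± 0.0968 CPM in H28O16.1 (SD, n = 3), 12.4 ± 0.484 CPM in B0395.3 and 9.99 ± 0.467 CPM in L4440. The early zygotic gene sdz-28 averaged 1.26 ± 0.115 CPM in H28O16.1, 45.2 ± 0.161 CPM in B0395.3 and 27.7 ± 3.03 CPM in L4440. For vet-6 the means were 1.57 ± 0.0418 CPM in H28O16.1, 34.2 ± 1.61 CPM in B0395.3 and 34.0 ± 0.636 CPM in L4440. For pes-10 they were 0.743 ± 0.0714 CPM in H28O16.1, 12.7 ± 1.08 CPM in B0395.3 and 15.1 ± 1.09 CPM in L4440. The summed level of the list was 538 to 546 CPM in H28O16.1, 604 to 616 CPM in B0395.3 and 604 to 627 CPM in L4440, most of it from skn-1 and pal-1, while med-1, med-2 and end-1, early endoderm and mesoderm regulators, averaged under 1 CPM in every group. Of the 5 oocyte markers, 4 were lower in H28O16.1 and 1 higher, and they summed to 6176 to 6493 CPM in H28O16.1, 6950 to 7180 CPM in B0395.3 and 7418 to 7703 CPM in L4440. Of the 6 intestine markers, 5 were higher and 1 lower, with sums of 35821 to 39162 CPM in H28O16.1 against 32192 to 33957 CPM in L4440. Most of these intestine sums came from the yolk genes vit-2 and vit-6. Of 12 sperm markers 7 could be tested, of which 4 were lower and 1, spe-41, was higher (1.96). The list summed to 9.70 to 11.1 CPM in H28O16.1, 4.54 to 5.31 CPM in B0395.3 and 5.66 to 7.27 CPM in L4440. Most of the H28O16.1 sum was spe-41, which averaged 7.79 CPM there, 2.00 CPM in B0395.3 and 2.00 CPM in L4440. Of all genes tested, 26.3% were higher and 31.2% lower. In the other lists, 1 of 4 muscle markers was higher and 0 lower, and 0 of 3 pharynx muscle markers were called. Of 5 hypodermis markers 1 was higher and 2 lower, of 6 germ line markers 2 and 2, and of 6 neuron markers 0 and 2. The part of these tissues in the pseudogene values, rises and falls alike, was not tested. In RNA of whole worms, fewer cells of a type and less RNA per cell cannot be told apart.

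The largest rises in H28O16.1 were smaller than the largest falls. M116.2, a pseudogene of 3 exons on chromosome IV, was at 19.4, 18.7 and 18.1 CPM in H28O16.1, 5.76, 5.14 and 5.75 CPM in B0395.3, and 4.43, 3.29 and 3.97 CPM in L4440. All 3 groups were apart, and H28O16.1 was 4.80-fold above L4440 (log2 fold change 2.26, SE 0.10, edgeR adjusted p = 7.35e-10). Its nearest coding neighbour, timm-17B.2, a mitochondrial import gene 969 bases away, had log2 fold changes over L4440 of -0.10 in H28O16.1 and 0.33 in B0395.3 (edgeR adjusted p = 0.371 and 0.0138). F54D11.3, on chromosome V, was at 19.3, 21.1 and 20.7 CPM in H28O16.1, 6.84, 8.62 and 7.03 CPM in B0395.3, and 7.51, 7.65 and 8.17 CPM in L4440. Only H28O16.1 stood apart (log2 fold change over L4440 1.39, edgeR adjusted p = 2.25e-08). The gene pmt-2, a methyltransferase of phosphatidylcholine synthesis 137 bases from F54D11.3 on the opposite strand, was called lower in the same comparison (log2 fold change -0.54, edgeR adjusted p = 4.74e-06).

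The largest rise was fitted for C06C3.5, on chromosome II, with 5.09, 5.15 and 4.01 CPM in H28O16.1, 1.17, 1.20 and 1.19 CPM in B0395.3, and 1.13, 0.802 and 0.809 CPM in L4440 (log2 fold change over L4440 2.37, SE 0.16, edgeR adjusted p = 4.41e-08). This value cannot be assigned to the pseudogene alone. Exons of srh-48, a chemoreceptor gene on the opposite strand, cover 73.9% of its exon bases, the library kit does not mark strand, and srh-48 was itself called higher (log2 fold change 1.22, edgeR adjusted p = 0.000173). The remaining large rises were Y61A9LA.5 (1.54), Y46G5A.43 (1.39), B0391.8 (1.21), F09F3.8 (1.16), F56D6.16 (1.16), C08A9.11 (1.10) and F22B8.4 (1.10).

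**Figure D2:**
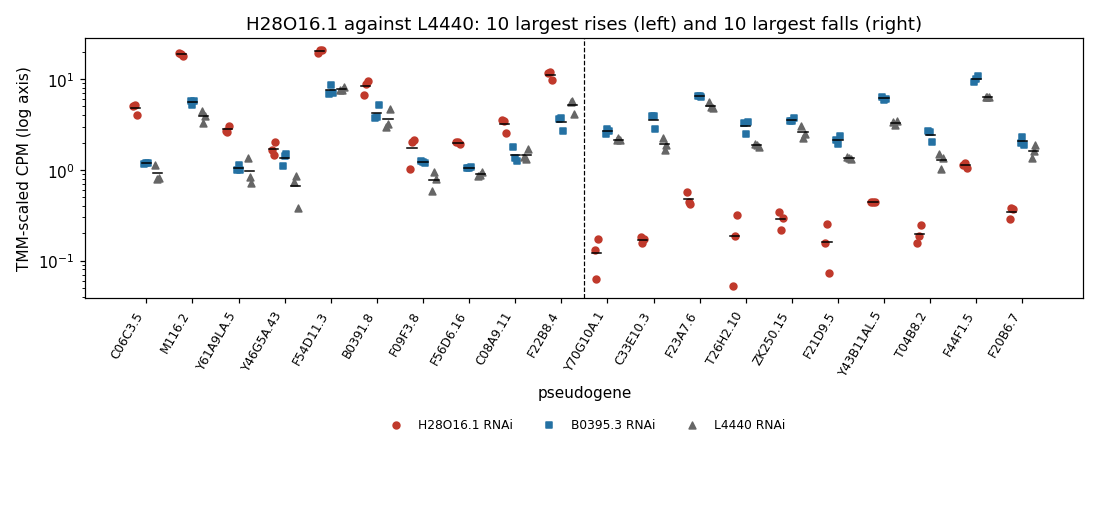
TMM-scaled CPM on a log axis in each library for the 10 largest rises (left of the dashed line) and the 10 largest falls (right) in H28O16.1 over L4440. Points are libraries (3 per group) and bars are group means. In Y43B11AL.5 the H28O16.1 libraries sit between 0.439 and 0.444 CPM and the L4440 libraries between 3.13 and 3.41 CPM.

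Among the 25 members at a mean of 10 CPM or more, 6 were higher and 14 lower in H28O16.1 over L4440. Of all genes tested at any level, 26.3% were higher and 31.2% lower. Of the changes among the 25 members 1 passed 2-fold, a rise, and their log2 fold changes lay between -0.97 and 1.39. C06A1.4, a model of 11 exons on chromosome II, was at 135, 128 and 139 CPM in H28O16.1, 209, 216 and 213 CPM in B0395.3, and 225, 232 and 227 CPM in L4440. The groups did not overlap, and the fall in H28O16.1 was 0.77 on the log2 scale (log2 fold change -0.77, SE 0.03, edgeR adjusted p = 4.91e-10). C14B1.7 (-0.39), K11H3.4 (-0.54) and F43D2.2 (-0.71) also fell. ZC513.7 rose, with 99.1, 103 and 114 CPM in H28O16.1, 70.9, 72.0 and 68.4 CPM in B0395.3, and 69.9, 71.2 and 69.1 CPM in L4440 (log2 fold change over L4440 0.59, edgeR adjusted p = 2.06e-07). Exons of algn-12, a protein glycosylation gene on the opposite strand, cover 32.4% of ZC513.7, and algn-12 was called higher by 0.12, so reads of the shared bases cannot be told apart. C10C6.9 was not called in any comparison, with 11.5, 12.9 and 9.86 CPM in H28O16.1, 11.5, 10.8 and 11.5 CPM in B0395.3, and 11.1, 10.9 and 10.1 CPM in L4440.

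Both tRNA pseudogenes rose in H28O16.1. ZK380.t2 was at 4.34, 4.80 and 3.79 CPM in H28O16.1, 2.54, 2.31 and 2.28 CPM in B0395.3, and 2.59, 2.27 and 1.87 CPM in L4440. D1005.t1 was at 2.66, 3.17 and 2.25 CPM in H28O16.1, 1.75, 2.00 and 2.11 CPM in B0395.3, and 1.46, 1.68 and 1.59 CPM in L4440. H28O16.1 was above both other groups in every library of each (log2 fold changes over L4440 of 0.94 and 0.76, edgeR adjusted p = 6.02e-05 and 0.000869). Among the 10 single-exon members, which include both, 6 were higher, 3 lower and 1 not called, against 26.3% higher and 31.2% lower of all genes.

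The libraries of B0395.3 RNAi were set against those same controls. Changes were fewer and mostly upward: 43 members were higher, 8 were lower and 131 were not called, while 12.6% of all genes were called higher and 14.6% lower (27.2% in either direction). Past a 2-fold change, 7 members were higher and 2 lower, against 1.69% and 2.74% of all genes. The median log2 fold change was 0.15, against 0.01 over all genes, and the groups did not overlap in 82 members, against 47.1% of all genes. The count of 43 depended on how members were chosen. With members chosen by a mean of at least 1 CPM in H28O16.1, outside this comparison, 28 of 170 were higher and 9 lower, with a median of 0.11. That choice is not neutral either. It drops the 26 members with an H28O16.1 mean below 1 CPM, several of the largest rises in B0395.3 among them. It takes in 14 pseudogenes from outside the rule, so its counts are a description too. Leaving out B0395.3 replicate 1 gave 29 higher and 6 lower, and leaving out B0395.3 replicate 3, L4440 replicate 2 or L4440 replicate 3 left 5 lower in each case.

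C24H12.11, a pseudogene of 6 exons near the left end of chromosome II, rose most. It stood at 3.44, 2.91 and 3.22 CPM in B0395.3 against 1.43, 1.28 and 1.31 CPM in L4440, a 2.38-fold difference without overlap (log2 fold change 1.25, SE 0.17, edgeR adjusted p = 9.24e-05). In H28O16.1 it was at 0.575, 0.439 and 0.245 CPM, below both. C33D9.5, on chromosome IV, had 8.59, 8.39 and 9.04 CPM in B0395.3 against 4.15, 3.24 and 4.22 CPM in L4440, again without overlap (log2 fold change 1.16, edgeR adjusted p = 4.28e-06). Its H28O16.1 libraries, at 3.08, 3.64 and 3.08 CPM, overlapped those of L4440 (log2 fold change -0.25, edgeR adjusted p = 0.0960). The coding gene C33D9.6, 576 bases away on the same strand, was called higher in B0395.3 too (0.75, edgeR adjusted p = 0.000102).

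F35E12.4, on chromosome V, was at 8.90, 7.71 and 8.27 CPM in B0395.3 against 3.69, 3.72 and 4.58 CPM in L4440 (log2 fold change 1.05, edgeR adjusted p = 6.24e-06). Its coding neighbour dct-17, 722 bases away on the same strand, went the other way (-1.07, edgeR adjusted p = 4.01e-06). The other 7 of the 10 largest rises were F21D9.6 (1.15), Y37H2C.1 (1.06), Y53F4B.8 (1.05), Y46G5A.43 (1.02), T04B8.2 (0.91), Y43B11AL.5 (0.89) and C33E10.3 (0.87). Of the early embryo markers, 4 were higher in B0395.3 (tbx-37, tbx-38, sdz-28 and sdz-31, by 0.31 to 0.71). The other called markers, pes-10 (-0.25) and skn-1 (-0.10), were lower, where 12.6% of all genes were higher and 14.6% lower. All 3 pharynx muscle markers were higher (median log2 fold change 0.58), with sums of 45.2 to 50.6 CPM in B0395.3 against 29.3 to 32.2 CPM in L4440. The ribosomal RNA share given above was also higher in B0395.3 than in L4440. Their part in the rises was not tested.

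F25C8.1, on chromosome V, fell most in B0395.3, where it was at 0.598, 0.742 and 0.630 CPM against 1.32, 1.74 and 2.00 CPM in L4440 (log2 fold change -1.37, SE 0.21, edgeR adjusted p = 0.000300). It was at 2.25, 2.76 and 2.08 CPM in H28O16.1, so that the order of the groups was the reverse of that of C24H12.11. The acyl-CoA synthetase gene acs-12, 37 bases away on the opposite strand, was lower in B0395.3 as well (-0.58, edgeR adjusted p = 9.09e-05). The other 7 falls were Y39B6A.21 (-1.02), F56D6.17 (-0.75), F22B8.4 (-0.64), Y105C5A.25 (-0.54), F07H5.3 (-0.26), F43D2.2 (-0.19) and C06A1.4 (-0.10). Those of F56D6.17, Y105C5A.25 and C06A1.4 lost the call under several alternatives, Y105C5A.25 passing at an adjusted p of 0.0498. Intestine markers include asp-1, a protease gene 893 bases from Y39B6A.21 that fell as well (log2 fold change -0.74). They summed to 22448 to 23765 CPM in B0395.3 against 32192 to 33957 CPM in L4440, with 4 of 6 lower and none of the 6 higher. Most of these sums came from the yolk genes vit-2 and vit-6, both lower, while elt-2 (0.03) and ifb-2 (0.18) were not called. Of the 4 muscle markers 3 were lower and none higher (median log2 fold change -0.67), with sums of 343 to 397 CPM in B0395.3 against 543 to 658 CPM in L4440. Of all genes, 12.6% were higher and 14.6% lower. Of 5 oocyte markers 0 were higher and 3 lower, and of 5 hypodermis markers 0 and 2. Of 7 sperm markers tested 0 were higher and 2 lower, of 6 germ line markers 0 and 1, and of 6 neuron markers 1 and 0. The part of these markers in the falls was not tested.

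**Figure D3:**
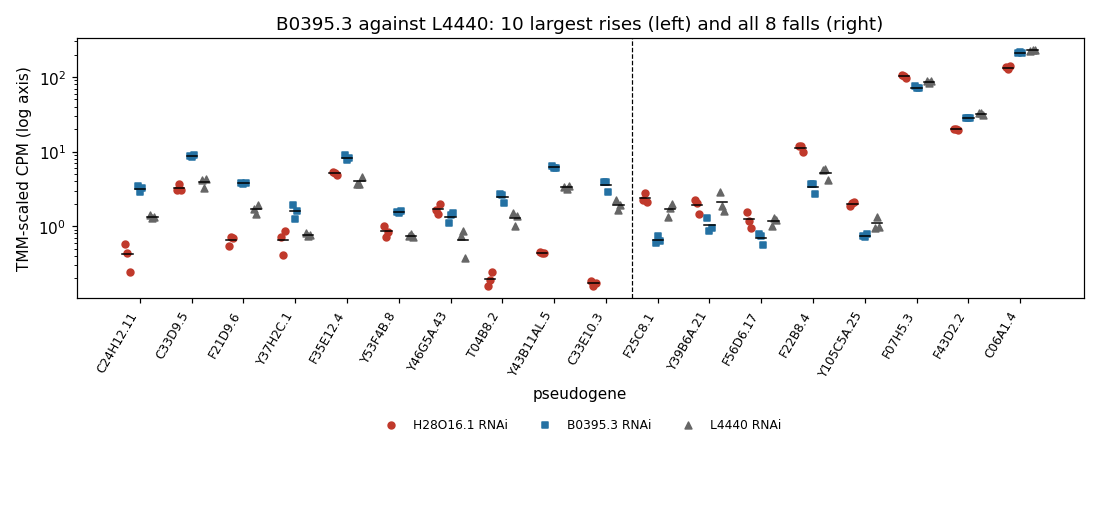
TMM-scaled CPM on a log axis in each library for the 10 largest rises (left of the dashed line) and all 8 falls (right) in B0395.3 over L4440, with group means as bars. C24H12.11 lies at 2.91 to 3.44 CPM in B0395.3 and 1.28 to 1.43 CPM in L4440, and F25C8.1 at 0.598 to 0.742 CPM in B0395.3 and 1.32 to 2.00 CPM in L4440.

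Between the RNAi groups themselves, 38 members were higher in H28O16.1 than in B0395.3, 96 were lower and 48 were not called, against 30.5% and 32.1% of all genes (62.6% in either direction). Past a 2-fold change the counts were 10 and 35, against 5.72% and 9.61% of all genes. The median was -0.33, against -0.00 over all genes, and the groups did not overlap in 139 members, against 66.8%. The largest differences were Y70G10A.1 (log2 fold change -4.37, edgeR adjusted p = 2.57e-09) and C33E10.3 (-4.34, adjusted p = 6.79e-09) downward and C06C3.5 (1.99, adjusted p = 1.09e-07) and F25C8.1 (1.84, adjusted p = 3.23e-06) upward. Y67H2A.9, 1347 bases from the omega-3 desaturase gene fat-1, was at 7.94, 8.60 and 6.75 CPM in H28O16.1 against 3.75, 3.11 and 3.59 CPM in B0395.3, without overlap (1.15, adjusted p = 8.07e-06). Y48G1BL.5, on chromosome I, was at 3.29, 3.55 and 3.45 CPM in H28O16.1 against 1.63, 1.68 and 1.43 CPM in B0395.3, also without overlap (1.12, adjusted p = 2.69e-06).

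Members that lie next to each other were not alike in every case. With gaps of at most 20 kb, 57 members fell into 22 runs of 2 to 5. These runs, and the members named from them, were chosen after their values were seen. The longest, on chromosome II from 12131530 to 12162661, holds Y57A10A.1, Y43F11A.6, Y57A10A.7, Y57A10A.3 and Y57A10A.6. All 5 were lower in H28O16.1 than in L4440, with a median log2 fold change of -0.69, and their B0395.3 values over L4440 lay between -0.04 and 0.02, none of them called. Y43F11A.6 shows it, with 6.74, 7.59 and 7.04 CPM in H28O16.1, 13.9 to 14.2 CPM in B0395.3, and 14.2, 14.1 and 13.5 CPM in L4440.

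On chromosome V from 19223853 to 19251089, T26H2.10, F21D9.6 and F21D9.5 lie near the chemoreceptor gene str-81. All 3 were lower in H28O16.1 (-3.28, -1.39 and -3.10 in that order) and higher in B0395.3 (0.72, 1.15 and 0.69), each over L4440. F21D9.6 lies inside str-81, and F21D9.5 shares 5.99% of its exon bases with it. str-81 itself was at 0.0657 CPM on average in H28O16.1, 0.519 CPM in B0395.3 and 0.300 CPM in L4440.

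A run of 4 on the same chromosome from 20440232 to 20469413 was split. B0250.4, F48F5.2 and B0250.12 were lower in H28O16.1 (-1.12, -2.10 and -0.89) and higher in B0395.3 (0.78, 0.42 and 0.73), while B0250.3 was not called in either (0.02 and -0.03). The F07H5 run on chromosome II, 5.18 kb long, holds the member with the most counts. Within it F07H5.3 was at 108, 104 and 95.5 CPM in H28O16.1, 74.6, 70.7 and 70.8 CPM in B0395.3, and 88.0, 84.2 and 87.2 CPM in L4440. So in B0395.3 it was lower than in L4440 (-0.26, edgeR adjusted p = 0.000580), where its neighbour F07H5.5 was higher (0.29). Within single libraries the ratio of the CPM of F07H5.3 to that of F07H5.5, not scaled by length and compared here between groups, was 0.357 ± 0.0332 (SD, n = 3) in H28O16.1, 0.211 ± 0.00593 in B0395.3 and 0.309 ± 0.00681 in L4440, and the groups did not overlap. If these copies share near-identical stretches, the split of reads between them is uncertain.

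**Figure D4:**
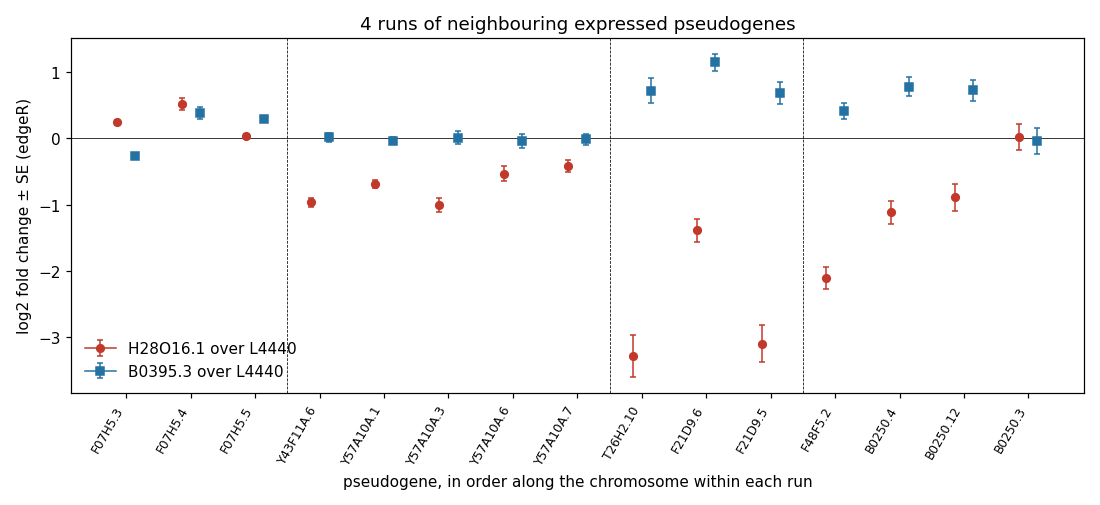
Log2 fold changes over L4440 with their SE (3 libraries per group) for 4 runs of neighbouring pseudogenes, separated by dashed lines. The 5 members of the Y57A10A run have a median of -0.69 in H28O16.1 and lie near 0 in B0395.3, and F07H5.3 and F07H5.5 have opposite signs in B0395.3.

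Neighbouring coding genes were set beside the members in the same way. Of the pairs in which both the member and its nearest coding gene were tested and the member was called, the neighbour was called in the same direction in 46 of 98 (46.9%) for H28O16.1 over L4440, in 17 of 43 (39.5%) for B0395.3 over L4440 and in 54 of 105 (51.4%) for H28O16.1 over B0395.3. The same shares among protein-coding genes and their nearest coding genes were 35.7%, 22.0% and 37.4%. Neighbours called in the opposite direction made up 20.4%, 9.30% and 22.9% for members, against 26.3%, 10.4% and 28.2% for coding genes. Both genes were tested for 142 of the 182 members. For T04B8.2 the neighbour was arrd-1, which encodes an arrestin domain protein, 1417 bases away on the same strand. T04B8.2 was at 0.157, 0.188 and 0.245 CPM in H28O16.1 against 1.51, 1.02 and 1.37 CPM in L4440, and arrd-1 averaged 1.60 CPM in H28O16.1 against 12.1 CPM in L4440, with log2 fold changes of -2.69 and -2.92. F23A7.6 and its neighbour F23A7.5, only 88 bases away on the opposite strand, did not match (log2 fold changes over L4440 in H28O16.1 of -3.41 and 0.45, edgeR adjusted p of the neighbour = 0.251). Reads that run past the end of a coding gene into a pseudogene would be counted with it, and their part was not tested.

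Exons of another gene overlapped those of 28 members, of which 8 had at least 50% of their exon bases covered. Of those 8, 2 were higher, 2 lower and 4 not called in H28O16.1 over L4440, where 26.3% of all genes were higher and 31.2% lower. C36A4.14, with 84.5% of its bases in C36A4.10 on the same strand, was at 1.36, 1.66 and 1.59 CPM in H28O16.1, 4.83, 5.00 and 4.68 CPM in B0395.3, and 3.47, 3.15 and 3.29 CPM in L4440. C36A4.10 was under 0.2 CPM on average in each group, and where the reads of the shared bases were counted is not known. Among the 154 members with no such overlap, 41 were higher and 69 lower in H28O16.1 over L4440. In B0395.3 over L4440, where 12.6% of all genes were higher and 14.6% lower, 36 were higher and 8 lower.

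All 11 genes of the nonsense-mediated decay list, whose products act on transcripts with early stop codons, were tested. In H28O16.1 over L4440, where 57.6% of all genes were called, 3 were higher and 4 lower, among them smg-5 at 0.26, smg-6 at 0.15, smgl-1 at -0.22 and smg-7 at -0.24. In B0395.3 over L4440, where 27.2% of all genes were called, smg-1, the kinase of the pathway, was higher by 0.12 and smg-9 by 0.31, and none was lower. Of the small RNA silencing list, 31 of 34 names were found and tested. In H28O16.1, 8 were higher and 17 lower than in L4440, against 26.3% and 31.2% of all genes.

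The nuclear Argonaute gene nrde-3 averaged 56.1 ± 6.23 CPM in H28O16.1 (SD, n = 3), 111 ± 2.06 CPM in B0395.3 and 105 ± 3.17 CPM in L4440 (log2 fold change over L4440 -0.91 in H28O16.1, edgeR adjusted p = 3.67e-08). The RNA-dependent RNA polymerase gene rrf-1 was lower (-0.60) and its germ line relative ego-1 higher (0.46) in H28O16.1, and mut-16, a scaffold of small RNA amplification, was lower (-0.47). In B0395.3, 1 member, the Argonaute gene ppw-2, was higher (0.27) and 7 were lower, against 12.6% and 14.6% of all genes. The part of these genes in the pseudogene values was not tested.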

How the data were processed

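RNA from 9 libraries of whole worms was compared in 3 RNAi groups of 3. The table of counts that the authors deposited gives whole numbers per gene and library, not normalized. Tools named in the submitters' processing notes are STAR 2.4.1d, featureCounts 1.4.6-p4 and bcl2fastq 1.8.4, with the build WBcel235. Their roles, and the handling of reads that similar genes share, are not given in the sources used. Per the labels' protocols the kit was TruSeq RNA Library Preparation v2, an unstranded kit with poly(A) selection. A second table, of RPKM, was not used.

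Biotypes, exons and neighbours came from the Ensembl 115 annotation of WBcel235, which holds 46449 of the identifiers and lacks 299 (0.155% to 0.179% of the counts). Of the 182 members, 182 were found in RefSeq by locus tag and 181 with the same coordinates. Tests ran in edgeR 4.0.16 (R 4.3.3): filterByExpr with a minimum count of 10 kept 14622 genes, counts were TMM-scaled, 1 quasi-likelihood fit took all 9 libraries, and two-sided p-values were adjusted by Benjamini-Hochberg over all genes tested. A gene is called at an adjusted p below 0.05. SEs are the log2 fold change divided by the square root of its F statistic. Genes were ordered by level only per kilobase of exon; the limit of 1 CPM, other CPM classes and the ratio of F07H5.3 to F07H5.5 use CPM without length. The test was also run on simulated counts with known changes. Members and lists were chosen with earlier results of these data known. Named members are the 10 highest per kilobase, up to 10 largest rises and falls per comparison without overlap, those nearest the limit of the rule and, from each list, up to 4 genes with small p. Neighbouring genes and runs were named after their values were seen. Alternatives were RLE scaling, DESeq2 1.42.0, other filters, other limits of the rule, fits of 2 groups, each library left out, and a choice of members in the group outside a comparison, which was chosen after seeing the data. Replicates were numbered by the order of their records. The closest coding relatives were not analysed here.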

Additional observations from a re-analysis of the deposited data

How the results depend on the processing

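No call of a member changed sign under any alternative run. With DESeq2, 14 of the 51 calls in B0395.3 over L4440 were lost and 0 gained. There 5 members were lower, in place of 8, and the remaining lost calls were rises. DESeq2 also lost 12 of 126 calls in H28O16.1 over L4440 and 11 of 134 in H28O16.1 over B0395.3, with 0 gained in each. With a limit of 2 CPM the B0395.3 comparison with L4440 gave 26 higher, 4 lower and a median log2 fold change of 0.0874, and H28O16.1 over B0395.3 gave 62 lower. With members chosen in the group outside the comparison, an alternative chosen after seeing the data, the median of H28O16.1 over L4440 was -0.24 and 28 members were higher in B0395.3 than in L4440. Fewer or other members entered those counts by construction, and for DESeq2 the cause was not tested. Leaving out 1 library at a time gave 42 to 51 higher and 70 to 78 lower (median -0.16 to -0.11) in H28O16.1 over L4440, 29 to 45 higher and 5 to 9 lower (median 0.14 to 0.18) in B0395.3 over L4440, and 31 to 40 higher and 91 to 96 lower (median -0.37 to -0.28) in H28O16.1 over B0395.3. The share of counts held by the members was 0.170% in H28O16.1, 0.193% in B0395.3 and 0.176% in L4440 without the 10 genes with the most counts, and 0.127%, 0.146% and 0.136% in the same order without F07H5.5. Of the named values under alternatives, 676 kept their call or lack of one and 20 lost the call, the 20 being for F56D6.17, Y105C5A.25 or C06A1.4 in B0395.3 over L4440. No paired analysis was possible because the labels give no replicate numbers. Alternatives that need the genome sequence (members with few repeated 50-mers, closest coding relatives) were not run. The sources do not say how reads of similar copies were counted, which limits values of members with near copies.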

Other observations

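A limit on the mean over all libraries leaves out pseudogenes expressed in 1 group. Of the unnamed pseudogenes below the limit, 38 had a mean of at least 1 CPM in some group, 13 of them in H28O16.1 alone and 20 in B0395.3 alone. These were chosen after their values were seen, and a group mean chose them, so their values are given without a reading. On the left arm of chromosome II, 4 of them (C24H12.3, C24H12.7, C24H12.9 and C24H12.19) lie beside C24H12.11. C24H12.7 was at 0.287, 0.0941 and 0.0978 CPM in H28O16.1, 1.60, 1.43 and 1.72 CPM in B0395.3, and 0.908, 0.749 and 0.860 CPM in L4440. C24H12.19 was at 0.0522, 0.0941 and 0.0489 CPM in H28O16.1, 1.46, 0.799 and 1.02 CPM in B0395.3, and 0.303, 0.481 and 0.455 CPM in L4440. C24H12.7 and C24H12.19 reached 1 CPM in B0395.3 alone, so that B0395.3 was their highest group follows from the choice. C24H12.2, a member of the same stretch, was at 1.99, 2.13 and 1.98 CPM in H28O16.1. It was at 2.46, 1.97 and 1.89 CPM in B0395.3 and 1.87, 2.33 and 1.92 CPM in L4440, with all groups overlapping.

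T20G5.15, on chromosome III, was at 0.104, 0.251 and 0.269 CPM in H28O16.1, 1.55, 1.43 and 1.55 CPM in B0395.3, and 0.440, 0.401 and 0.506 CPM in L4440. F49F1.8, on chromosome IV, reached a mean of 1 CPM in H28O16.1 alone, with 1.12, 1.41 and 1.47 CPM there. It was at 0.263, 0.600 and 0.461 CPM in B0395.3 and 0.165, 0.374 and 0.0759 CPM in L4440, which overlapped.

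The 68 pseudogenes that carry a symbol and reach the same level were counted as a comparison. In H28O16.1 over L4440, 12 were higher (17.6%) and 31 lower (45.6%), against 26.3% and 31.2% of all genes tested. In B0395.3 over L4440, 18 were higher (26.5%) and 4 lower (5.88%), against 12.6% and 14.6%. In H28O16.1 over B0395.3, 10 were higher (14.7%) and 42 lower (61.8%), against 30.5% and 32.1%. The difference between these counts and those of the unnamed pseudogenes was not tested.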
